A study of Mus musculus with 23 samples.

Results

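The libraries compared here were 5 of the 23 in the series: 2 labelled IgG_Control and 3 labelled anti-PD1, chosen by those labels alone. Anti-PD1 is an antibody that blocks the receptor PD-1, and IgG is the unspecific antibody given as its control. All 5 carry the labels B16F10, a mouse melanoma cell line, and genotype WT, which means that Nr2f6, the gene the study targets elsewhere, was left intact. The labels give no dose, schedule, time, mouse strain, age or sex, and they do not say whether RNA came from a whole tumor or from a purified fraction. The methods of the study do not mention sequencing of these libraries. It is not stated that the libraries came from separate mice, so each p-value measures only the spread between these libraries. Of 47643 genes, 13418 had a mean of at least 1 TPM over the 5 libraries and were tested. TPM is a transcript's share of all transcripts, corrected for gene length and scaled to a total of 1000000 in every library, and differences are given on the log2(TPM + 1) scale as anti-PD1 minus IgG, with the standard error.

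PD-1, encoded by Pdcd1, is a brake on activated T cells, and its ligand PD-L1, encoded by Cd274, is carried by tumor and myeloid cells. Activated CD8 T cells and natural killer (NK) cells secrete interferon-γ, which turns on antigen presentation, chemokines that attract T cells and the interferon-inducible GTPases in the cells around them. B16F10 tumors are known for a poor response to PD-1 blockade alone. Melanoma cells keep the pigment program of melanocytes, so pigment transcripts serve as a tracer of tumor cells in mixed tissue.

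No gene differed between anti-PD1 and IgG at an adjusted p below 0.05, and the libraries of 1 treatment differed widely among themselves. Summed T cell and cytotoxic transcripts varied by over 10-fold among the 3 anti-PD1 libraries, whose extremes enclosed both IgG libraries. The summed levels of interferon, MHC and leukocyte genes were lowest in anti-PD1 replicate 1, and those of melanocyte and cell cycle genes were lowest in IgG replicate 2. The protein-coding genes with the smallest p-values included several of myeloid cells that were lower in every anti-PD1 library, among them Siglece, Cd300e and Nr1h3.

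IgG replicate 2 stood apart from the other 4 libraries. Of 11802 tested protein-coding genes it listed 451 at 0 TPM, against 29 to 76 in the others. Its correlation with IgG replicate 1 across genes (r = 0.891) was below that of IgG replicate 1 with each anti-PD1 library (0.930 to 0.953), and on the first principal component of the 500 most variable genes, with 46.15% of the variance, it alone lay on the negative side. Mitochondrially encoded genes took 8.63% to 21.9% of all TPM, against 2.56% to 8.02% in the other 18 libraries of the series, and 31.3% in anti-PD1 replicate 1 when their near-identical copies on chromosome 1 were added, which lowers every other TPM there. Results are therefore also given without IgG replicate 2 and with these transcripts removed, which moved the median log2 difference of all tested genes from -0.04 to 0.12.

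The cell content was checked on marker lists. Pigment genes were present, with Dct at 602 to 1873 TPM, but the median of 14 melanocyte genes was 36.3 to 138 TPM, against 406 to 454 TPM in the 6 bulk tumor libraries of the series. The median of 15 leukocyte genes was 86.7 to 253 TPM here and 7.37 to 26.2 TPM in those tumors, and the median of 18 macrophage genes was 167 to 341 TPM here and 8.66 to 20.9 TPM there. Summed fibroblast genes were at 39.1 to 109 TPM here and at 460 to 1201 TPM there. Summed endothelial genes were at 24.0 to 42.6 TPM here and at 143 to 172 TPM there. These tables share 1 normalization, but the sample type of the 5 libraries is not labelled. The gaps therefore cannot be told apart from a difference in how the libraries were prepared. The median of 12 skeletal muscle genes and that of 11 keratinocyte genes were 0 TPM in all 5 libraries. Mast cell and adipocyte genes had no tested member. Other lists were mixed, with 6 of 11 neutrophil and 6 of 13 B cell genes reaching a mean of 1 TPM. Of the neutrophil markers Ly6g was listed at 0 in every library of the series. S100a8 was at 18.35 to 65.8 TPM and Csf3r at 20.35 to 41.35 TPM in these 5 libraries. Of the B cell markers Ms4a1 did not exceed 0.46 TPM, whereas Cd22 was at 6.45 to 12.95 TPM.

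**Figure D1:**
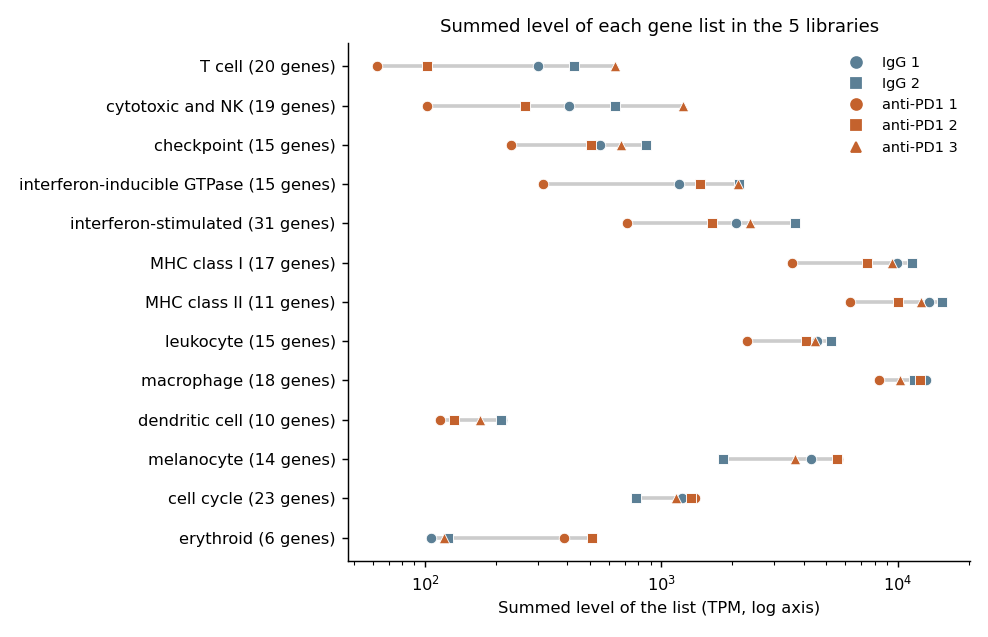
Summed TPM of 13 gene lists (log axis) in the 2 IgG (blue) and 3 anti-PD1 (orange) libraries, 1 point per library, with a grey line from the lowest to the highest. For T cell, cytotoxic and GTPase genes the anti-PD1 libraries span nearly the whole range, and IgG replicate 2 has the lowest melanocyte sum, 1828 TPM.

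T cell transcripts differed more within the anti-PD1 group than between the groups. Cd3e, a signalling chain of the T cell receptor, was at 20.1 and 22.1 TPM in IgG replicates 1 and 2, and at 0.65, 2.41 and 29.6 TPM in anti-PD1 replicates 1, 2 and 3. Cd8a, the coreceptor of cytotoxic T cells, was at 21.98 and 30.1 TPM with IgG and at 2.54, 4.69 and 44.2 TPM with anti-PD1. For both genes anti-PD1 replicates 1 and 2 lay below the IgG libraries and replicate 3 above them. The log2 difference was -1.99 ± 1.10 for Cd3e and -1.46 ± 0.98 for Cd8a (limma, adjusted p = 0.608 and 0.620). Of the 20 T cell genes, 17 had a lower and 3 a higher mean with anti-PD1, and none was called, as for all genes (0.0% of 13418 called higher and 0.0% lower). None of the 20 separated the groups without overlap, against 9.57% of all tested genes higher and 15.8% lower (25.4% in either direction). Their summed TPM was 299 and 426 with IgG and 62.3, 102 and 636 with anti-PD1, a 10.2-fold range within the anti-PD1 group.

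Genes of killing showed a similar order of libraries. Gzmb, the granzyme that triggers apoptosis in target cells, was at 80.2 and 108 TPM with IgG and at 13.3, 41.8 and 354 TPM with anti-PD1. Prf1, the pore-forming perforin, was at 26.5 and 35.4 TPM with IgG and at 1.83, 10.8 and 86.2 TPM with anti-PD1. Ifng, interferon-γ itself, was at 13.1 and 22.6 TPM with IgG and at 0.78, 16.2 and 49.5 TPM with anti-PD1. In all 3 genes anti-PD1 replicate 1 was the lowest library and replicate 3 the highest, so the groups overlapped. The log2 differences were -0.65 ± 1.17, -1.15 ± 1.23 and -0.66 ± 1.23 (limma, adjusted p = 0.845, 0.735 and 0.851), and without anti-PD1 replicate 1 they turned to 0.39, 0.02 and 0.69. Of 18 tested cytotoxic and NK genes 15 were lowest in anti-PD1 replicate 1 and 12 were highest in anti-PD1 replicate 3. The matching shares of all tested genes were 30.8% and 6.79%. The median log2 difference of the list was -0.70 with all libraries and -0.01 without anti-PD1 replicate 1. It was -0.25 without IgG replicate 2.

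The mix of lymphocyte transcripts also varied. The ratio of Cd8a to Cd4, the coreceptor of helper T cells that some myeloid cells also carry, was 4.74 and 36.7 with IgG and 0.51, 2.09 and 8 with anti-PD1. The value of 36.7 rests on a Cd4 level of only 0.82 TPM in IgG replicate 2, against 2.24 to 5.52 TPM elsewhere. Relative to the pan-leukocyte gene Ptprc (CD45), the T cell sum was 1.85 and 1.56 with IgG and 0.72, 0.61 and 2.53 with anti-PD1. On this scale too, anti-PD1 replicates 1 and 2 were the lowest libraries and replicate 3 was the highest. Divided by Cd3e, 4 genes whose mean log2 level was lower with anti-PD1 were instead higher in every anti-PD1 library. For Gzmb and Ifng the mean TPM itself was higher with anti-PD1, at 136 against 94.3 and at 22.2 against 17.9. The ratios rest on the choice of Cd3e, whose level varied 45.6-fold between libraries, against 10.98-fold for the T cell receptor gene Trac. Trac was at 41.3 and 34.96 TPM with IgG and at 7.66, 13.4 and 84.1 TPM with anti-PD1. Divided by Trac, none of the 4 genes was higher in every anti-PD1 library. The separation of these ratios therefore depended on the divisor. Gzmb per Cd3e was 3.998 and 4.91 with IgG and 20.5, 17.3 and 11.9 with anti-PD1, and Ifng per Cd3e was 0.66 and 1.02 against 1.20, 6.73 and 1.67. Pdcd1 per Cd3e was 1.05 and 0.62 against 3.74, 1.65 and 1.24, and Cd8a per Cd3e was 1.10 and 1.36 against 3.91, 1.95 and 1.49. Except for Ifng these ratios were highest in anti-PD1 replicate 1, where the divisor was only 0.65 TPM, and they were not tested. In these values fewer cells of a type and less RNA per cell cannot be told apart.

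Checkpoint genes were on average lower with anti-PD1 in 15 of 15, with a median log2 difference of -0.72 (-0.35 without IgG replicate 2 and -0.21 without anti-PD1 replicate 1). Pdcd1, the antibody's target, was at 21.01 and 13.8 TPM with IgG and at 2.43, 3.97 and 36.7 TPM with anti-PD1, in the order of the T cell genes. Cd274 was at 104 and 197 TPM with IgG and at 34.9, 124 and 124 TPM with anti-PD1. Neither gene separated the groups (log2 difference -1.06 ± 0.95 and -0.81 ± 0.58). At an unadjusted p below 0.05, which 2.97% of tested genes reached as higher and 4.21% as lower, the list had 2 genes, both lower. They were Vsir, the myeloid inhibitory receptor VISTA, at 126 and 141 against 67.4, 91.9 and 87.0 TPM, and Tox, a factor of exhausted T cells, at 5.29 and 8 against 0.76, 0.43 and 4.8 TPM. Their log2 differences were -0.70 ± 0.22 and -1.62 ± 0.65 (limma, adjusted p = 0.608 for both).

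**Figure D2:**
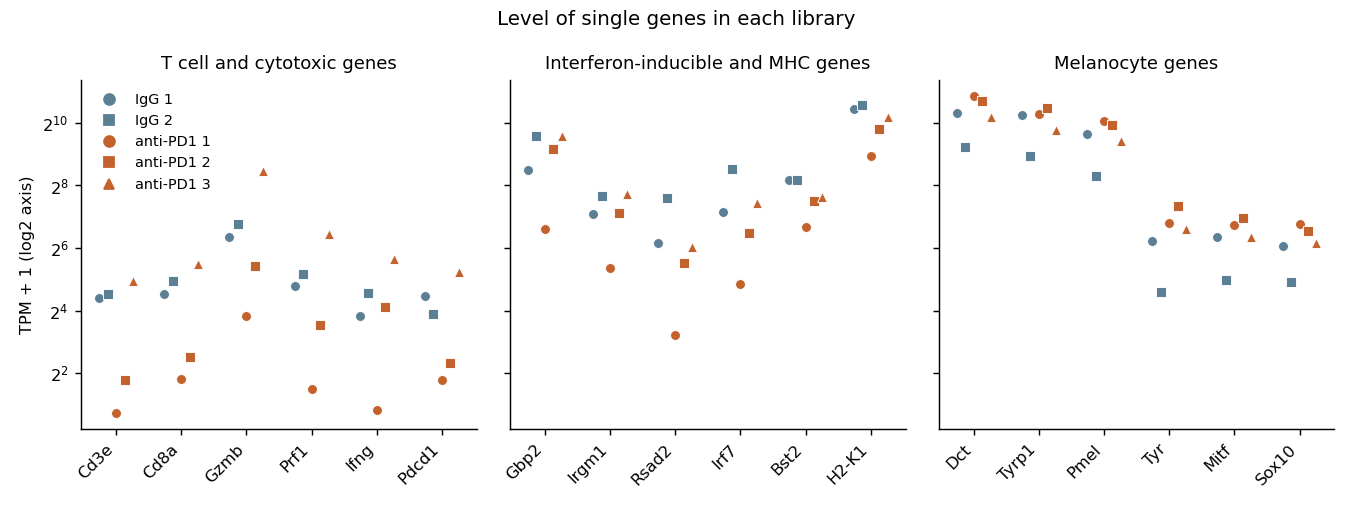
TPM + 1 (log2 axis) of 18 single genes in each library, with IgG in blue and anti-PD1 in orange. Anti-PD1 replicate 1 (circle) is lowest in the interferon and MHC panel and in the T cell panel, and IgG replicate 2 (square) is lowest in the melanocyte panel.

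Interferon-stimulated genes had a lower mean with anti-PD1 in 31 of 31, against 53.5% of all tested genes, with a median log2 difference of -0.90. All 31 were lowest in anti-PD1 replicate 1, a library that was lowest for 30.8% of all tested genes. Of the 31, 29 were highest in IgG replicate 2, a library that was highest for 30.6% of all tested genes. With mitochondrial transcripts removed, 30 of the 31 were lowest in anti-PD1 replicate 1. The median was -0.51 without IgG replicate 2 and -0.41 without anti-PD1 replicate 1. Rsad2 (viperin, an antiviral enzyme) was at 70.4 and 195 TPM with IgG and at 8.34, 45.4 and 64.8 TPM with anti-PD1, so the groups did not overlap (log2 difference -1.95 ± 0.84, adjusted p = 0.608). Irf7, a transcription factor of the type I interferon response, was at 142 and 367 TPM with IgG and at 28.0, 87.4 and 171 TPM with anti-PD1, with overlap (-1.59 ± 0.74). Bst2 (tetherin, which holds budding viruses at the membrane) was at 287 and 291 TPM with IgG and at 101, 179 and 196 TPM with anti-PD1 (-0.92 ± 0.31, adjusted p = 0.608). In all, 4 of the 31 were lower without overlap, against 15.8% of all tested genes, and 1 of them, Bst2, had an unadjusted p below 0.05, against 4.21% of all tested genes that were lower at that level. Neither count stood above the background.

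The 15 interferon-inducible GTPases, which attack membranes that hold intracellular parasites, varied together between libraries. Their sum was 1187 and 2134 TPM with IgG and 315, 1462 and 2116 TPM with anti-PD1, so that anti-PD1 replicate 3 was close to IgG replicate 2 and anti-PD1 replicate 1 was 6.71-fold lower than replicate 3. All 15 were lowest in anti-PD1 replicate 1, also with mitochondrial transcripts removed. Gbp2, the most abundant member, was at 359 and 757 TPM with IgG and at 97.0, 570.5 and 767 TPM with anti-PD1 (log2 difference -0.58 ± 0.84, adjusted p = 0.809, and 0.34 without anti-PD1 replicate 1). Irgm1, a regulator of autophagy, was at 136 and 202 TPM with IgG and at 40.4, 138 and 212 TPM with anti-PD1, and Igtp was at 89.0 and 152 against 20.9, 99.6 and 148 TPM. In all 3 only anti-PD1 replicate 1 lay below the IgG libraries. The list median of -0.65 turned to 0.06 without anti-PD1 replicate 1. The promoters of the 3 most abundant members with a RefSeq window (GRCm38.p6, 250 bases before to 50 after the start, 5′ to 3′ on the gene's strand) are shown because these genes varied together, with 2 motifs in capitals on either strand: the core of the interferon-stimulated response element (TTTC, any 2 bases, TTTC) and TTCNNNGAA, a STAT-type site. They lie at chr3:142620413-142620712 (plus strand), chr11:48871371-48871670 (minus) and chr11:58199306-58199605 (plus).
Gbp2: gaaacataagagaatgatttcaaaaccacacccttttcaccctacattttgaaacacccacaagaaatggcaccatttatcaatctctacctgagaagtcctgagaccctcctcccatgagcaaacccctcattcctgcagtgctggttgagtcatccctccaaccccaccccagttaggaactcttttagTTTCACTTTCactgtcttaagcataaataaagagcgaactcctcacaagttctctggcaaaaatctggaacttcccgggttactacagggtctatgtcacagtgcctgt
Irgm1: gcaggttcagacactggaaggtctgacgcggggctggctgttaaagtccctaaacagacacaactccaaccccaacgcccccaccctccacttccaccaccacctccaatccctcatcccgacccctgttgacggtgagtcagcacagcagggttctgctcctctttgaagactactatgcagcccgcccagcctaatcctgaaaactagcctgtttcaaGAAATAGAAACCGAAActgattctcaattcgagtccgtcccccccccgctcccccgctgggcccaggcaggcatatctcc
Igtp: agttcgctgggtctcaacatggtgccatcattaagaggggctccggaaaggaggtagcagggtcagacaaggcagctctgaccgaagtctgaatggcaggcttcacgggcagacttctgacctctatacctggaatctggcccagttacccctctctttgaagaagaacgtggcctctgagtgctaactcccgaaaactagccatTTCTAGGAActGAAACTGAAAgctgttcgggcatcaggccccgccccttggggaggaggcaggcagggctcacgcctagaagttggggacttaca

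The response-element core began 59 bases before the start in Gbp2. It began 34 bases before the start in Igtp, on the opposite strand, and 30 and 24 bases before it in Irgm1, where 2 overlapping matches on the opposite strand form the run in capitals. Of 10 windows of 9 GTPase genes, 9 held the response-element core on either strand and 6 held TTCNNNGAA, against 3.44% and 8.30% of all 32851 windows. The core was also in 13 of 24 windows of the interferon-stimulated list. These are matches of letters and not measured binding sites.

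Genes of antigen presentation were lower on average with anti-PD1 throughout the class I list (17 of 17, median log2 difference -0.85) and in 10 of 11 class II genes (-0.59). B2m, the light chain of class I molecules, was at 3833 and 4115 TPM with IgG and at 1380, 3143 and 3521 TPM with anti-PD1 (-0.68 ± 0.40, adjusted p = 0.609). H2-K1, a classical heavy chain, was at 1397 and 1534 TPM with IgG and at 488, 887 and 1177 TPM with anti-PD1 (-0.87 ± 0.36, adjusted p = 0.608). H2-M3, which presents formylated bacterial and mitochondrial peptides, was at 55.4 and 69.5 TPM with IgG and at 25.5, 32.1 and 34.5 TPM with anti-PD1 (-1.004 ± 0.23, adjusted p = 0.608). For these 3 genes, in TPM as deposited, every anti-PD1 library was below both IgG libraries. Anti-PD1 replicate 1 was the lowest and replicate 3 the closest to IgG. H2-Eb1, a class II chain, was at 1771 and 1873 against 798, 1061 and 1467 TPM (-0.76 ± 0.28, adjusted p = 0.608). Without overlap and lower were 6 of 17 class I and 5 of 11 class II genes, against 15.8% of all tested genes. The medians were -0.62 and -0.52 without IgG replicate 2, and -0.36 and -0.32 without anti-PD1 replicate 1. With mitochondrial transcripts removed they were -0.68 and -0.43, and the groups overlapped in both sums. The class I sum was then 11713 and 13870 with IgG and 5219, 8911 and 12940 with anti-PD1. The class II sum was then 16060 and 18540 with IgG and 9172, 12011 and 17222 with anti-PD1. The 15 leukocyte genes, which mark total immune content, had a median of -0.46. Their sum was 4544 and 5222 TPM with IgG and 2307, 4078 and 4483 TPM with anti-PD1, so it was lowest in the same library. With mitochondrial transcripts removed the leukocyte sum was 5368 and 6264 with IgG and 3360, 4871 and 6142 with anti-PD1, with overlap. Divided by the leukocyte sum, the class II sum was 2.99 and 2.96 with IgG and 2.73, 2.47 and 2.80 with anti-PD1. Its range shrank from 2.45-fold to 1.21-fold, and every anti-PD1 library stayed below both IgG libraries. Per unit of Ptprc, the class II sum was 83.9 and 56.7 with IgG and 72.6, 59.9 and 49.98 with anti-PD1, so the groups overlapped. The separation of the class II sum therefore depended on the divisor. For class I the part of leukocyte content was not tested.

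Macrophage genes spread less. Their sum was 13234 and 11796 TPM with IgG and 8361, 12416 and 10269 TPM with anti-PD1, a 1.58-fold range, which shrank to 1.28-fold with mitochondrial transcripts removed. Cd68, a lysosomal macrophage marker, was at 974 and 951 TPM with IgG and at 613, 746 and 666 TPM with anti-PD1, without overlap (log2 difference -0.52 ± 0.18, limma, adjusted p = 0.608). Csf1r, the receptor for the macrophage growth factor CSF-1, was at 319.8 and 315 TPM with IgG and at 173, 255 and 240.2 TPM with anti-PD1 (-0.53 ± 0.23). Mrc1 and Cd163, scavenging receptors of alternatively activated macrophages, shared an order of libraries of their own within the list. Mrc1 was at 262 and 180.4 TPM with IgG and at 350.2, 394 and 168 TPM with anti-PD1, highest in anti-PD1 replicates 1 and 2, where T cell genes were lowest (0.39 ± 0.39). Cd163 was at 1.72 and 1.09 TPM with IgG and at 4.92, 8.95 and 0.81 TPM with anti-PD1. Arg1, arginase of suppressive myeloid cells, was at 1224 and 1132 TPM with IgG and at 395, 1478 and 582 TPM with anti-PD1, a 3.75-fold range within the treated group. Per unit of Csf1r it was 3.83 and 3.59 with IgG and 2.28, 5.81 and 2.42 with anti-PD1, so the groups overlapped.

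Of 10 dendritic cell genes 8 had a lower mean with anti-PD1, against 53.5% of all tested genes, with a median log2 difference of -0.51. Of the 10, 5 were lower without overlap, against 15.8% of all tested genes. Divided by the leukocyte sum, the dendritic sum was 0.046 and 0.040 with IgG and 0.050, 0.032 and 0.038 with anti-PD1, with overlap. Clec9a, the receptor by which cross-presenting dendritic cells sense dead cells, was at 19.1 and 37.6 TPM with IgG and at 5.31, 7.88 and 16.0 TPM with anti-PD1. Xcr1, the chemokine receptor of the same cells, was at 6.48 and 4.91 TPM with IgG and at 1.25, 1.09 and 3.15 TPM with anti-PD1. Ccl22, a chemokine of mature dendritic cells, was at 23.9 and 30.2 TPM with IgG and at 11.2, 14.3 and 18.4 TPM with anti-PD1. The log2 differences were -1.50 ± 0.48, -1.30 ± 0.45 and -0.86 ± 0.28, each with an adjusted p of 0.608 (limma). They were -1.03, -1.47 and -0.70 without IgG replicate 2. The median of the dendritic list moved little when anti-PD1 replicate 1 was left out (-0.50) and when IgG replicate 2 was left out (-0.63). Flt3, the growth factor receptor of dendritic cells, and the integrin gene Itgax (CD11c) were the other 2 without overlap. Among chemokines, 17 of 19 tested were lower on average, and Ccl12, a monocyte attractant, was the 1 gene higher without overlap, at 253 and 239.7 against 341, 709 and 325 TPM (0.80 ± 0.35, adjusted p = 0.608).

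**Figure D3:**
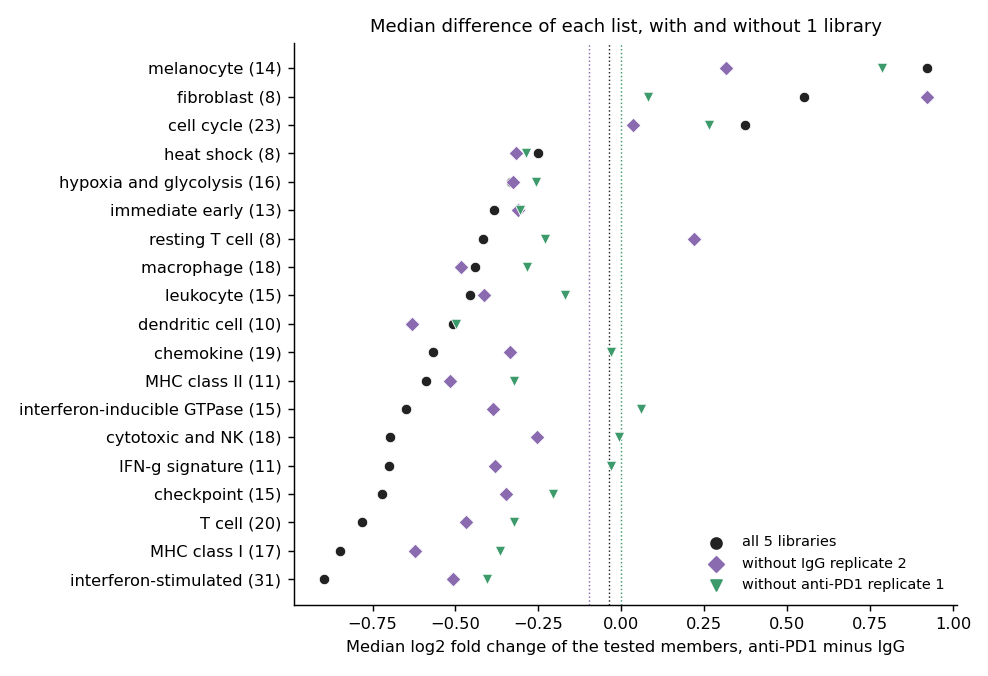
Median log2 difference (anti-PD1 minus IgG) of the tested members of each list with 8 or more tested genes, with all 5 libraries (black circles), without IgG replicate 2 (purple diamonds) and without anti-PD1 replicate 1 (green triangles); the number of tested genes is in parentheses and dotted lines mark the median of all tested genes. The GTPase median of -0.65 moves to 0.06 without anti-PD1 replicate 1, and the melanocyte median of 0.92 moves to 0.31 without IgG replicate 2.

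Melanocyte genes were higher on average with anti-PD1 in 14 of 14, against 46.5% of all tested genes, with a median log2 difference of 0.92. Of the 14, 13 were lowest in IgG replicate 2, a library that was lowest for 37.2% of all tested genes. Without that library the median was 0.31 (1.57 without IgG replicate 1). At an unadjusted p below 0.05 were 6 of the 14, all higher, against 2.97% of all tested genes, and all 6 were lowest in IgG replicate 2. Dct, dopachrome tautomerase of the melanin pathway, was at 1268 and 602 TPM with IgG and at 1873, 1674 and 1168 TPM with anti-PD1 (0.82 ± 0.36, adjusted p = 0.608). Tyrp1, its neighbour in the pathway, was at 1228 and 489 TPM with IgG and at 1245, 1425 and 870.2 TPM with anti-PD1 (0.58 ± 0.41, and -0.09 without IgG replicate 2). Tyr, the rate-limiting tyrosinase, was at 74.3 and 23.4 TPM with IgG and at 111, 161 and 95.7 TPM with anti-PD1, without overlap (1.49 ± 0.48, adjusted p = 0.608, and 0.68 without IgG replicate 2). Mitf, the master factor of the lineage, and Sox10, which acts upstream of it, also separated the groups, at 80.0 and 30.7 against 107, 124 and 81.6 TPM and at 66.5 and 29.1 against 108, 92.1 and 70.3 TPM. Their log2 differences were 1.03 ± 0.40 and 0.99 ± 0.37, and 0.36 and 0.41 without IgG replicate 2, since IgG replicate 1 lay just below anti-PD1 replicate 3 for both. The promoters of the 2 most abundant members with a window are shown with CATGTG, the E-box of the MITF family, in capitals on either strand, at chr14:118052197-118052496 (minus strand) and chr4:80833963-80834262 (plus).
Dct: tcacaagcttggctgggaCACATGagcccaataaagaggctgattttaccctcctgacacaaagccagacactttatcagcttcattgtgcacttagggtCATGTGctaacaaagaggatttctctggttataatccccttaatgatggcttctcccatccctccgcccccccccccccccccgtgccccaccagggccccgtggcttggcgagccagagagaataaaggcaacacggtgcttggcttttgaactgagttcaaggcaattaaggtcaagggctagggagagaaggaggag
Tyrp1: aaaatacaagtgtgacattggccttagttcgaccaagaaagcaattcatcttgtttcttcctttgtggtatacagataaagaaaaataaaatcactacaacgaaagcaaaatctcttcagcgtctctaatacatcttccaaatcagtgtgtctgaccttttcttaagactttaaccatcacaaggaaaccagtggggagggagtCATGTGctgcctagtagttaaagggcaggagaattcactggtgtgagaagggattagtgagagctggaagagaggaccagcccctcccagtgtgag

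This box was in 8 of 13 windows of 9 melanocyte genes, against 14.2% of all windows, and the response-element core was in 0 of the 13. It began 46 bases before the start in Tyrp1, and 232 and 150 bases before it in Dct.

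Cell cycle genes had the order of the pigment genes, with IgG replicate 2 mostly the lowest. All 23 had a higher mean with anti-PD1 (median log2 difference 0.37). Of the 23, 19 were lowest in IgG replicate 2, against 37.2% of all tested genes. The median was 0.034 without that library and 0.73 without IgG replicate 1. Rrm2, the small subunit of ribonucleotide reductase, was at 66.6 and 41.3 TPM with IgG and at 98.8, 107 and 78.8 TPM with anti-PD1, without overlap (0.83 ± 0.27, adjusted p = 0.608). Erythroid genes were higher on average in 5 of 5 (median 1.44, and 0.18 without IgG replicate 1). Hbb-bs, an adult β-globin, was at 43.5 and 23.7 TPM with IgG and at 129, 201 and 46.5 TPM with anti-PD1, high in replicates 1 and 2 and close to IgG in replicate 3 (1.70 ± 0.59, adjusted p = 0.608). All 8 tested fibroblast genes were highest in anti-PD1 replicate 1, against 17.3% of all tested genes (median 0.55, and 0.08 without that library).

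Hypoxia and heat shock genes leaned the other way. Of 16 hypoxia and glycolysis genes 15 had a lower mean, against 53.5% of all tested genes. With mitochondrial transcripts removed, the median log2 difference moved from -0.33 to -0.17 for hypoxia genes and from -0.25 to -0.09 for heat shock genes. The hypoxia sum was then 12703 and 12285 with IgG and 11492, 11935 and 10618 with anti-PD1, without overlap. The heat shock sum was then 6358.5 and 5609 with IgG and 6785, 5900 and 6164 with anti-PD1, with overlap. Vegfa, the angiogenic growth factor, was at 206 and 308 TPM with IgG and at 106, 173 and 119 TPM with anti-PD1 (-0.95 ± 0.29, adjusted p = 0.608). The inducible HSP70 genes Hspa1a and Hspa1b were at 249 and 261 and at 260.4 and 233 TPM with IgG, and at 88.5, 163 and 126 and at 88.0, 165 and 136 TPM with anti-PD1. They were lower without overlap (-1.06 ± 0.28 and -0.97 ± 0.29, adjusted p = 0.608 for both), and as near-identical copies they may share reads. Nr4a1, an immediate early gene of antigen receptor signalling, was at 31.7 and 14.5 against 39.2, 45.2 and 47.8 TPM (0.999 ± 0.34, adjusted p = 0.608). Of its 13-gene list it was the 1 member higher at an unadjusted p below 0.05, and Jun was the 1 that was lower. Of all tested genes 2.97% were higher and 4.21% lower at that level.

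The remaining lists are given by their medians. The median log2 difference was -0.70 for 11 genes of an interferon-γ signature, of which 10 had a lower mean (-0.03 without anti-PD1 replicate 1). It was -0.42 for 8 resting T cell genes and 0.13 for 6 regulatory T cell genes. B cell (6 tested), plasma cell (3) and neutrophil genes (6) had medians of -0.56, -0.51 and -0.24. Endothelial (4), skeletal muscle (3) and keratinocyte genes (2) had medians of -0.64, -0.44 and 0.31, and the 1 tested gene of lymphoid tissue stroma had -0.20. The medians of immediate early, heat shock and 4 sex-linked genes were -0.38, -0.25 and -0.54.

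Several genes with consistently lower levels in anti-PD1 libraries are known from myeloid cells. Siglece (chr7:43651070-43660161 on mm10), a sialic acid receptor that inhibits myeloid cells, was at 17.6 and 22.6 TPM with IgG and at 5.29, 4.58 and 5.55 TPM with anti-PD1. Cd300e (chr11:115051917-115062177), an activating receptor of monocytes, was at 20.6 and 14.6 TPM with IgG and at 2.13, 3.39 and 4.78 TPM with anti-PD1. Nr1h3 (chr2:91184061-91202834), the oxysterol receptor LXRα and 1 of the 6 receptors and effectors listed from the study, was at 29.9 and 43.4 TPM with IgG and at 11.4, 13.9 and 13.7 TPM with anti-PD1. All 3 were lower in every anti-PD1 library, which their choice by small p and groups without overlap required. The log2 differences were -1.77 ± 0.26, -2.09 ± 0.36 and -1.41 ± 0.25 (limma, adjusted p = 0.493, 0.585 and 0.585). They were -1.60, -2.33 and -1.15 without IgG replicate 2, and -1.66, -2.01 and -1.26 with mitochondrial transcripts removed. Per unit of Csf1r, Siglece was 0.055 and 0.072 with IgG and 0.031, 0.018 and 0.023 with anti-PD1, and Nr1h3 was 0.094 and 0.137 with IgG and 0.066, 0.054 and 0.057 with anti-PD1.

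Cd72, Lrp1 and Dnase2a had the same separation at higher levels. Cd72, a coreceptor of B cells that macrophages also carry, was at 92.6 and 82.6 TPM with IgG and at 36.0, 42.2 and 41.6 TPM with anti-PD1 (-1.12 ± 0.20, adjusted p = 0.585). Lrp1, a scavenger receptor, was at 391 and 357 against 157, 224 and 185 TPM (-0.997 ± 0.22), and Dnase2a, the lysosomal nuclease of engulfed DNA, was at 92.1 and 116 against 41.3, 56.5 and 45.8 TPM (-1.10 ± 0.23, adjusted p = 0.608 for both). Lrp1 and Dnase2a were chosen after their values were seen, among the 15 protein-coding genes with the smallest p in each direction.

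Among genes higher with anti-PD1, Fcrls (chr3:87250758-87263738), an Fc receptor-like gene of microglia and some tissue macrophages, was at 5.17 and 3.22 TPM with IgG and at 66.6, 25.1 and 20.8 TPM with anti-PD1. The lowest anti-PD1 library was above the highest IgG library (2.73 ± 0.50, adjusted p = 0.585, and 2.45 without IgG replicate 2). Bfsp2, a lens filament gene, was at 14.4 and 6.16 against 52.9, 44.99 and 26.9 TPM (1.97 ± 0.42). Enpp2, the secreted enzyme autotaxin, was at 12.3 and 4.56 against 36.5, 35.2 and 19.9 TPM (1.83 ± 0.44, adjusted p = 0.608 for both). These 2 were lowest in IgG replicate 2, as the pigment genes were, and Enpp2 was chosen after its values were seen. mt-Nd4l, a subunit of mitochondrial complex I, was at 1738 and 1288 against 5746, 3162 and 5192 TPM (1.60 ± 0.30, adjusted p = 0.585), in libraries whose mitochondrial share differed as given above.

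**Figure D4:**
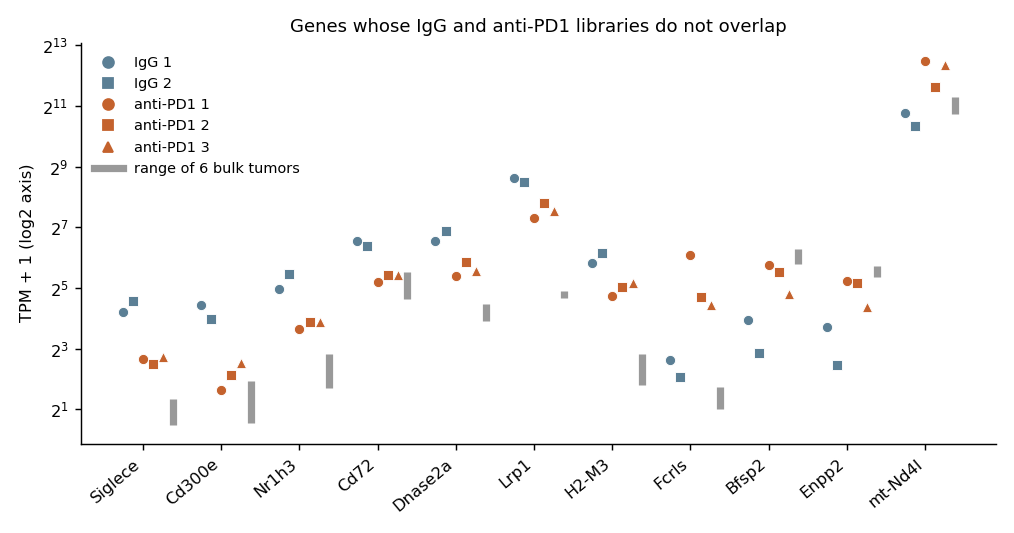
TPM + 1 (log2 axis) of 11 genes whose IgG (blue) and anti-PD1 (orange) libraries do not overlap, with grey bars for the range of the 6 bulk tumor libraries of the series. Siglece is at 17.6 and 22.6 TPM with IgG and at 4.58 to 5.55 TPM with anti-PD1, and Fcrls is higher in all 3 anti-PD1 libraries.

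The smallest adjusted p of all tested genes, 0.061, belonged to Gm10259 (chr3:25211016-25212605), a processed pseudogene listed at 0 in both IgG libraries and at 20.6, 13.8 and 15.7 TPM with anti-PD1. The next smallest p-values belonged to small nucleolar and nuclear RNA genes (Gm25767, Snora68 and Gm25047), likewise listed at 0 in both IgG libraries. Reads of a processed pseudogene can come from its parent gene, and poly(A) selection samples small RNAs poorly, so these values are uncertain. The 10 most variable genes were copies of mitochondrial sequence, another pseudogene, small RNAs and the histone genes Hist1h2ao and Hist1h2ap. Gm28661, a copy of mitochondrial sequence on chromosome 1, was listed at 0 in 3 libraries and at 16545 and 7151 TPM in anti-PD1 replicates 2 and 3, and mt-Co2, at 3458 TPM in anti-PD1 replicate 2 and at 20013 to 49255 TPM elsewhere, was low in the library where that copy was highest. Reads of near-identical copies cannot be assigned with certainty.

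Over all 13418 tested genes 0 were called in either direction by limma, and 964 had an unadjusted p below 0.05 (399 higher and 565 lower, or 7.18% in all). This split turned with the scaling: it was 583 higher and 495 lower with median-of-ratios scaling, 579 and 449 with quantile normalization, and 875 and 325 with mitochondrial transcripts removed, each with 0 called. The median absolute difference between the group means was 0.32 on the log2 scale, and the median range between libraries was 0.46 within IgG and 0.48 within anti-PD1. For 65.5% of genes the IgG range, and for 70.3% the anti-PD1 range, was larger than the difference of the means. With 3 against 2 libraries a 2-sided exact permutation test of a single gene cannot go below p = 0.2, if the smaller tail is multiplied by 2. Leaving out IgG replicate 1 gave 38 genes called higher and 75 lower, but IgG was then represented by replicate 2 alone, the library that stood apart, and its spread was assumed to equal that of the anti-PD1 libraries. Leaving out IgG replicate 2 gave 0 in either direction under the same assumption, and leaving out anti-PD1 replicate 1 or anti-PD1 replicate 3 gave 1 in each direction.

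**Figure D5:**
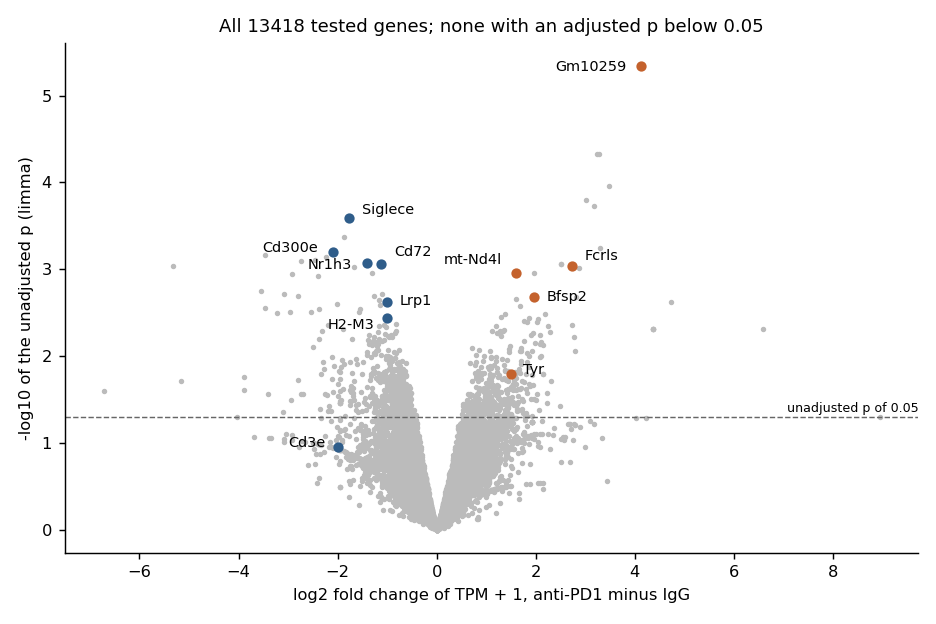
Log2 difference (anti-PD1 minus IgG) against -log10 of the unadjusted p (limma) for all 13418 tested genes, with 12 genes named. No gene has an adjusted p below 0.05; Cd3e has a larger difference (-1.99) than Nr1h3 (-1.41) but a p of 0.113, since its anti-PD1 libraries span 0.65 to 29.6 TPM.

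Nr2f6, the gene the study targets, was at 23.1 and 18.1 TPM with IgG and at 18.6, 17.5 and 14.4 TPM with anti-PD1, with overlap (log2 difference -0.27 ± 0.24, limma, adjusted p = 0.686). Its effectors named by the study, Nacc1 and Fkbp10, were at 41.2 to 52.6 TPM and 4.73 to 12.1 TPM over the 5 libraries, also with overlap. The median log2 difference of the 6 receptors and effectors was -0.31.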

How the data were processed

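Poly(A) RNA-seq libraries were single-end and stranded. The submitters' processing notes name cutadapt 2.3, STAR 2.7.0d, RSEM 1.3.1 and mm10. The deposited table holds TPM, normalized by the authors for gene length and library. Reads per library cannot be recovered from TPM, so no count test was run and depth is unknown. The other 18 libraries served as ranges and in 1 alternative.

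On the log2(TPM + 1) scale, each gene averaging 1 TPM or more over the 5 libraries was given 1 mean per group. The test was limma's moderated test with an intensity trend (version 3.58.1, R 4.3.3), 2-sided, with Benjamini-Hochberg adjustment over all tested genes. A gene was called at 1.5-fold or more with an adjusted p under 0.05. The code was tested on simulated data. The members and the 32 gene lists were chosen with earlier results of these data known. Genes outside the lists were named by smallest unadjusted p (10 per direction, averaging 5 TPM or more, 1.5-fold, groups not overlapping) and by largest SD (averaging 10 TPM or more). Others are marked as chosen after their values were seen. Positions are from GENCODE M21, and 47224 of 47643 genes matched it. Alternatives were another pseudocount, filters, scalings, a replicate block, a fit of all libraries, and each library left out.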

Additional observations from a re-analysis of the deposited data

How the results depend on the processing

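The count of called genes was 0 in each direction with a pseudocount of 0.1, without an expression filter, with a mean of at least 5 TPM, with each scaling, without a trend, without a fold threshold, and in the 3 alternatives chosen after seeing the data (mitochondrial genes and copies removed, protein-coding genes only, and genes above 0 TPM in all 5 libraries). A fit of all 23 libraries, in which other sample types set the spread, called 941 higher and 701 lower, and 4886 had an unadjusted p below 0.05. Leaving out 1 library gave 0 to 38 called higher, 0 to 75 called lower and 438 to 3328 at an unadjusted p below 0.05, the highest in each case without IgG replicate 1, where the lone IgG library was assumed to vary like the anti-PD1 libraries.

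The replicate numbers are not stated to pair libraries, and the check could not decide whether they do. Deviations of same-numbered libraries correlated at 0.13 and -0.01, and those of differently numbered libraries at -0.15 to 0.15. With 2 IgG libraries the deviations of 1 are those of the other with the sign turned. With the replicate block, which leaves 1 residual degree of freedom and no partner for anti-PD1 replicate 3, 208 genes were called higher, 306 lower and 1863 had an unadjusted p below 0.05.

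Over 30 lists, 373 of 388 medians under alternatives moved by less than the SD of the list median between libraries within groups. This SD was wide where libraries differed most, at 1.55 for cytotoxic and NK genes and 1.18 for GTPase genes. The GTPase move from -0.65 to 0.06 therefore counted as smaller, so the count does not show that the medians were stable. The range over left-out libraries was -1.22 to 0.22 for resting T cell, 0.31 to 1.57 for melanocyte, -1.09 to 0.20 for skeletal muscle and 0.18 to 2.07 for erythroid genes. Without an expression filter the medians were 0.27 for B cell, 0.043 for endothelial, 0.15 for skeletal muscle and -0.015 for keratinocyte genes. Keratinocyte genes, of which 2 were tested, had 0.59 with a pseudocount of 0.1, 0.057 with quantile normalization and 0.45 with mitochondrial transcripts removed, where the study's receptors and effectors had -0.15. Of the genes whose difference is printed, Tyrp1 ranged from -0.087 (without IgG replicate 2) to 1.24 over left-out libraries. Gzmb ranged from -1.93 to 0.39, Prf1 from -2.46 to 0.017, Ifng from -1.72 to 0.69 and Gbp2 from -1.14 to 0.34, each highest without anti-PD1 replicate 1. The first component held 53.45% of the variance over all tested genes and 43.1% with a pseudocount of 0.1. TPM carry no read counts, so the precision of low values is unknown.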

Other observations

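The following genes were chosen after their values were seen. Granzyme genes other than Gzmb also varied widely. Gzmf was at 11.6 and 45.2 TPM with IgG and at 4.23, 8.54 and 160 TPM with anti-PD1, and Gzmc was at 30.5 and 49.5 against 13.9, 31.7 and 238 TPM. In both, anti-PD1 replicate 3 was the highest library.

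A monocyte gene was highest in anti-PD1 replicate 3, and 2 genes of resident macrophages were lowest there among the anti-PD1 libraries. Ly6c2, a marker of inflammatory monocytes, was at 146 and 394 TPM with IgG and at 53.1, 188 and 498 TPM with anti-PD1. Folr2, a folate receptor of resident macrophages, was at 23.2 and 21.4 against 49.1, 57.8 and 22.6 TPM, and Lyve1, a hyaluronan receptor, was at 0.12 and 0 against 2.60, 3.82 and 0.56 TPM. None of the 3 had an adjusted p below 0.05 (limma, 0.846, 0.608 and 0.608).

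Beside Nr1h3, 11 genes known as LXR targets were tabulated. Their median log2 difference was -0.21, with 4 higher and 7 lower, and 2 in each direction without overlap, against 9.57% of all tested genes higher and 15.8% lower. Abcg1, a cholesterol exporter, was at 55.8 and 68.7 TPM with IgG and at 22, 39.4 and 39.6 TPM with anti-PD1, whereas Apoe was at 2627 and 1697 against 3003, 1596 and 1281 TPM.

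The Y-linked gene Ddx3y, an RNA helicase, was at 12.4 to 25.0 TPM in the 5 libraries, at 2.44 to 3.87 TPM in the 6 bulk tumors and at 0 in the 6 cultured B16F10 libraries of the series. It was lowest in anti-PD1 replicate 1, as were the leukocyte genes. Histone genes had no common order: Hist1h2bm was at 344 TPM in IgG replicate 2 and at 1.71 to 9.89 TPM in the other 4, whereas Hist1h2ap was listed at 0 in IgG replicate 2 and Hist1h2ao was highest in anti-PD1 replicate 3, at 161 TPM. The liver gene Alb was at 14.2 TPM in IgG replicate 2 and at 0.09 to 1.12 TPM in the others.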
